A study of Mus musculus with 2 samples.

Results

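Hedgehog signalling was followed here through 9 genes: the ligand Shh, the receptors and feedback genes Ptch1 and Hhip, the co-receptors Gas1, Boc and Cdon, and the transcription factors Gli1, Gli2 and Gli3. They were named by symbol as parts of the pathway, with no threshold on their values, from the 27998 genes listed for an E12.0 library and the 31053 listed for an E9.5 library of mouse mandibular cells. All 9 were found in both lists and each had a unique molecular identifier (UMI) in kept cells of both libraries. Counts are UMIs from 10x 3′ single-cell RNA-seq, which tags RNA molecules near their 3′ ends, so levels are compared between groups of cells for 1 gene and not between genes.

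Both libraries came from K14Cre;R26mT/mG embryos, in which Cre driven by the keratin 14 promoter switches cells from membrane Tomato to membrane GFP. The E12.0 library pooled 6 embryos of a litter, and its mandibular epithelium was peeled from the mesenchyme with dispase, dissociated and sorted for GFP, so cells that had not recombined are missing from it. The E9.5 library pooled 8 embryos and held unsorted epithelial and mesenchymal cells of the whole mandibular arch. Neither was treated. With 1 library per stage there is no replicate, and stage, sort and library cannot be told apart, so no test was run and the stages are not compared.

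Cells with 200 to 5500 genes and at most 10% mitochondrial UMIs were kept, which left 11355 of the 11663 E12.0 barcodes (median 6349 UMIs) and 12744 of the 14293 E9.5 barcodes (median 13460.5 UMIs). Of these barcodes 44 occurred in both libraries. UMIs were summed over groups of cells and given as CPM, the count of a gene scaled to 1000000 UMIs of the group. Brackets after a CPM value hold its exact 95% Poisson interval, after a log2 ratio the exact conditional 95% interval of a ratio of counts, and after a share of cells the exact 95% Clopper-Pearson interval, and all of these cover counting error only. A gene was called apart between groups when CPM plus a pseudocount of 5 CPM differed at least 1.5-fold and the higher group reached 10 CPM. Groups were set by UMIs of marker genes, called gates below, with cells outside every gate left between gates at E12.0 or ungated at E9.5. The label of sorted epithelium held for E12.0: all kept cells together had 426 CPM (422 to 431) of Epcam and 253 CPM (249 to 256) of Trp63, against 0.475 CPM (0.334 to 0.654) of the mesenchymal collagen gene Col3a1 and no UMI of Hbb-y, an embryonic globin gene.

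Hedgehog signals pass from cells that secrete a ligand to cells that carry its receptors. PTCH1 holds Smoothened inactive until ligand binds it, and Gli2 and Gli3 then act as activators rather than repressors. The transcripts of Ptch1, Hhip and Gli1 are raised by the pathway itself and are read as its response, and of these PTCH1 and HHIP also capture ligand and so limit its spread. GAS1, BOC and CDON bind ligand at the cell surface and assist reception, and their genes are known to be lowered where signalling is strong. In the embryonic face SHH comes from pharyngeal endoderm and oral epithelium, later from tooth placodes with their initiation knots and from taste bud placodes of the tongue, and mesenchyme is a main responding tissue.

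Promoter windows from RefSeq (GRCm38.p6) were at hand for 6 of the 9 genes, Ptch1, Gli2, Gli3, Hhip, Gas1 and Cdon. The 250 bases before the start are printed for Ptch1 and Gas1, the receptor and the co-receptor that lay furthest apart between cells with and without ligand transcripts, with every CG pair in capitals. The Ptch1 window is chr13:63565736-63565985 and the Gas1 window chr13:60177536-60177785, both on the minus strand and written 5′ to 3′. The Ptch1 window lies inside the span that GENCODE gives the gene, and the Gas1 window just outside its gene.
Ptch1: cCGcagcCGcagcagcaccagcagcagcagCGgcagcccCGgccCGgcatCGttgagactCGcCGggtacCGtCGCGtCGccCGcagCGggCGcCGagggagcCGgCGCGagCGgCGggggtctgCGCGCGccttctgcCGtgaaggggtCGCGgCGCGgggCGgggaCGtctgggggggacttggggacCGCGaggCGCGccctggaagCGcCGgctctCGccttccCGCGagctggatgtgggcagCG
Gas1: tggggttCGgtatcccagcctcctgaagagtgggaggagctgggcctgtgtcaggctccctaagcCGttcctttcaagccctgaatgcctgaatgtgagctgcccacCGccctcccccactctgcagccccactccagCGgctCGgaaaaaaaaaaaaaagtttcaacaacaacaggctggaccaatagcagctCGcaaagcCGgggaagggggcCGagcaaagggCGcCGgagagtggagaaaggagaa
The Ptch1 window holds 41 CG pairs and the Gas1 window 10, with a median of 6 over the 32851 windows in the table. The GLI motif GACCACCCA was searched on both strands of the 300 bases from 250 before to 50 after each start. It was found in none of the 6 members' windows and in 0.253% of all windows, which says only that these letters are not in these windows.

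Shh (ENSMUSG00000002633, chromosome 5 from 28456815 to 28467256, minus strand, positions in GRCm38), which encodes the ligand, was carried by few E12.0 cells. No Shh UMI was found in 10888 cells, 1 in 209 cells, 2 in 83 cells and at least 5 in 106 cells, up to 20 in a single cell. The 258 cells with at least 2 Shh UMIs, called Shh-high from here on, held 1323 of the 1532 Shh UMIs of the library. A UMI was found in 4.11% (3.75 to 4.49) of all kept cells and in 3.21% of cells after each was thinned to 4000 UMIs, with 916 shallower cells left out. The sorted library held no cell type that should lack Shh to set beside this share or those of the other members.

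By gate, the CPM of Shh was highest in the periderm gate, set by Grhl3, Nebl and Pkp1, at 68.0 CPM (56.4 to 81.3). These were 120 UMIs in 30 of 232 cells, and the study placed suprabasal cells in the same cluster as periderm. The tongue gate, set by Foxa1 and Foxa2, had 34.1 CPM (23.7 to 47.4) and the dental gate, set by dental markers with Irx1 among them, 21.0 CPM (18.2 to 24.2), with overlapping intervals. By share of cells with a Shh UMI the tongue gate stood above the periderm gate, at 20.7% (13.6 to 29.5) against 12.9% (8.90 to 17.9). These intervals overlapped, and the shares were 13.5% and 11.1% after thinning. Posterior cells (Col14a1, Rtl3 and Dmrt2) had 6.64 CPM (4.63 to 9.24) and anterior cells (Cxcl14 and Tfap2b) 5.96 CPM (5.11 to 6.91), which also overlapped each other. The gates did not take up most of the Shh-high cells: 158 of 258 (61.2%) lay between gates, 36 in the dental, 26 in the anterior, 22 in the periderm, 10 in the tongue and 6 in the posterior gate. Of the same 258 cells, 234 had no UMI of the forkhead genes Foxa1 or Foxa2 and 24 had at least 1.

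These 2 kinds of Shh-high cell were checked against 11 genes reported for initiation knots and taste buds. In the 234 Foxa-negative cells all 11 were higher than in the 10446 Foxa-negative cells without Shh, where 7.26% of all genes were, among them the WNT antagonist gene Dkk4 at 58.6 against 1.58 CPM, Fgf20 at 26.3 against 0.113 CPM, Gad1 at 67.7 against 1.57 CPM and the WNT target Sp5 at 127 against 4.95 CPM. The list was drawn by the study from these same cells in part, so it names them and is not independent evidence, and they are called initiation knot-like. In the 24 Foxa-positive cells 9 of the 11 were called higher, where 11.4% of all genes were, and Fgf20 was at 0. Among the 9, Proser2 on 3 UMIs and Wnt10a on 4 had log2 intervals that span 0, -0.68 to 3.57 and -0.85 to 2.61. No difference was detectable for them. Notum, which encodes a WNT-inactivating enzyme, was at 135 CPM against 1.11 CPM in the 442 Foxa-positive cells without Shh. It was also higher in the Foxa-negative Shh-high cells, at 89.8 against 1.16 CPM. Of these 24 cells 10 lay in the tongue gate, and they are called by their rule.

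Against all cells without Shh, cells that carried the ligand transcript had more Ptch1 and Gli1 and less of the co-receptors, while Hhip was at 0 in them. Against dental cells without Shh, given further on, Ptch1 and Gli1 were not called. Between the 258 Shh-high cells and the 10888 cells without Shh, 7 of the other 8 members were called apart, 2 of them higher and 5 lower, where 11.9% of 9067 genes were called apart in either direction (6.85% higher and 5.03% lower). Ptch1 and Gli1 were the higher ones, and Gas1, Boc, Cdon, Gli2 and Gli3 the lower ones. The same 7 were called when the 24 Foxa-positive cells and their counterparts were set aside, against 12.8% of genes (7.26% higher and 5.56% lower).

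Ptch1 (ENSMUSG00000021466, chromosome 13 from 63508328 to 63573598, minus strand), which encodes the receptor that holds Smoothened inactive, was measured at 218 CPM (198 to 239) in Shh-high cells and 111 CPM (109 to 114) in cells without Shh, a log2 ratio of 0.97 (0.83 to 1.11). It did not rise further with the number of Shh UMIs. Cells with 1 Shh UMI had 209.8 CPM (188 to 234), cells with 2 to 4 had 239 CPM (213 to 269) and cells with at least 5 had 187 CPM (159.5 to 218). A Ptch1 UMI was found in 72.1% (66.2 to 77.5) of Shh-high cells (median 7061.5 UMIs) and 40.9% (40.02 to 41.9) of cells without Shh (median 6327 UMIs), or 50.4% and 30.4% after thinning.

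Gli1 (ENSMUSG00000025407, chromosome 10 from 127329882 to 127341974, minus strand) encodes a Gli activator that is itself a target of the pathway. Its levels were 57.8 CPM (47.9 to 69.1) and 29.3 CPM (28.1 to 30.6) in the same groups, a log2 ratio of 0.98 (0.70 to 1.25). Like Ptch1 it was already higher with a single Shh UMI, at 49.7 CPM (39.2 to 62.1), and the classes of 2 to 4 and of at least 5 UMIs, at 59.4 and 55.5 CPM, had intervals that overlapped with it.

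Hhip (ENSMUSG00000064325, chromosome 8 from 79965851 to 80058006, minus strand), which encodes a surface protein that sequesters ligand, was not higher in Shh-high cells as Ptch1 and Gli1 were. No Hhip UMI was found in the 258 Shh-high cells, and 2.23 CPM (1.91 to 2.60) was measured in cells without Shh. Set against a floor of 3 UMIs over the Shh-high cells, 1.44 CPM, Hhip was 1.55-fold lower in them, and the exact upper limit of their 0 was 1.78 CPM. Both values lay under the 10 CPM minimum, so it was not called. Dental cells without Shh had 0.119 CPM (0.0030 to 0.661) of Hhip, so against them a count of 0 shows no difference.

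The co-receptor genes all ran the other way. Gas1 (ENSMUSG00000052957, chromosome 13 from 60174405 to 60177365, minus strand), which encodes a membrane-anchored ligand-binding protein, had the widest ratio of the 7 called members, 26.5 CPM (20.0 to 34.5) in Shh-high cells against 110.2 CPM (108 to 113) without Shh, a log2 ratio of -2.06 (-2.47 to -1.67). It was low already in cells with 1 Shh UMI, at 32.3 CPM (24.0 to 42.6), and stood at 20.6 CPM (13.4 to 30.5) with 2 to 4 and 34.7 CPM (23.4 to 49.5) with at least 5. A Gas1 UMI was found in 10.9% (7.33 to 15.3) of Shh-high cells and 39.6% (38.6 to 40.5) of the others, or 5.60% and 30.5% after thinning. Boc (ENSMUSG00000022687, chromosome 16 from 44485049 to 44558897, minus strand), a co-receptor of the immunoglobulin superfamily, stood at 9.15 CPM (5.51 to 14.3) against 28.4 CPM (27.2 to 29.7), with a log2 ratio of -1.64 (-2.37 to -0.99). Its relative Cdon (ENSMUSG00000038119, chromosome 9 from 35421128 to 35507652, plus strand) stood at 14.4 CPM (9.75 to 20.6) against 31.8 CPM (30.5 to 33.1), with a log2 ratio of -1.14 (-1.71 to -0.62).

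Both Gli genes whose proteins can act as repressors were lower with Shh. Gli3 (ENSMUSG00000021318, chromosome 13 from 15463235 to 15730026, plus strand), the main repressor among them, fell class by class from 115 CPM (113 to 117) without Shh through 89.1 CPM with 1 UMI and 66.9 CPM with 2 to 4 to 49.7 CPM (36.0 to 66.9) with at least 5, and intervals of neighbouring classes overlapped except between 0 and 1 UMI. The log2 ratio of all Shh-high cells was -0.94 (-1.21 to -0.69). Gli2 (ENSMUSG00000048402, chromosome 1 from 118834132 to 119053619, minus strand), the main activator, was at 18.3 CPM (13.0 to 25.1) against 36.8 CPM (35.4 to 38.2), a log2 ratio of -1.01 (-1.51 to -0.55).

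**Figure D1:**
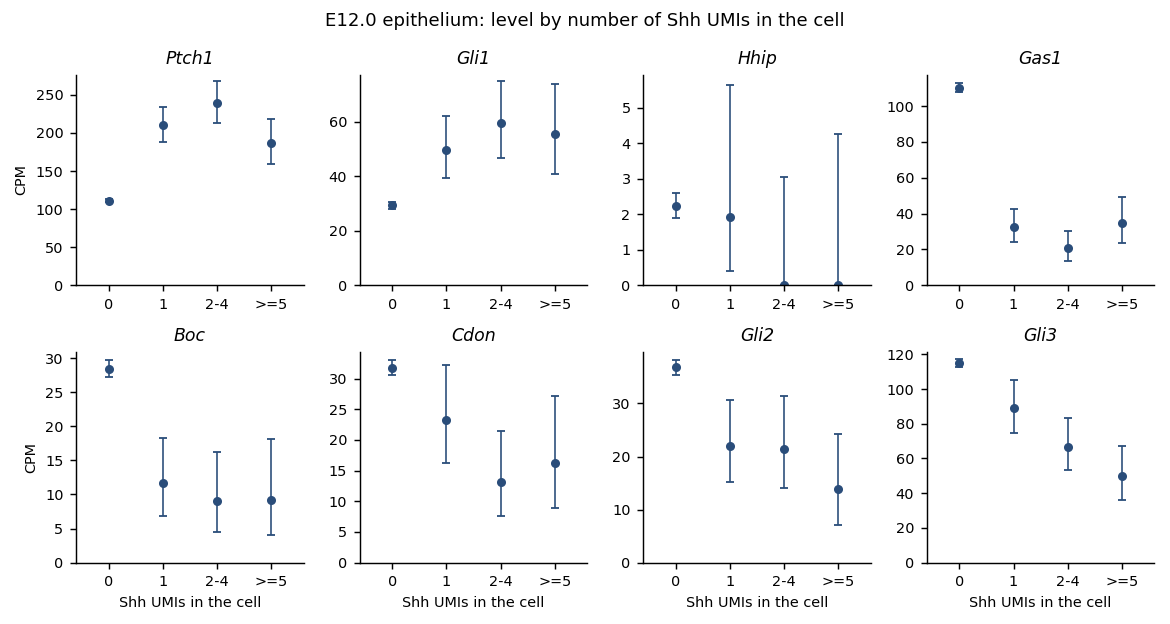
Level in CPM (vertical axis) of the 8 members other than Shh in E12.0 cells with 0, 1, 2 to 4 and at least 5 Shh UMIs (horizontal axis), with exact 95% Poisson intervals of the summed counts. Ptch1 and Gli1 are higher from 1 UMI on without climbing further, and Gas1, Boc and the repressor-type Gli genes sit lower in every class with Shh than in cells without it.

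Scrublet called 12.4% of Shh-high cells doublets, against 5.57% of cells without Shh. Without the called doublets Gas1 stood at 13.4 against 111 CPM, a log2 ratio of -3.06, and Ptch1 at 237 against 112 CPM, a log2 ratio of 1.07.

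The ratios of Ptch1 and Gli1 depended on the cells taken as the comparison. Of the 10888 cells without Shh, 4076 lay in the anterior gate and 1026 in the dental gate, and tooth initiation knots are known to form in dental epithelium. The 234 initiation knot-like cells were therefore also set beside the 1026 dental cells without Shh, a choice made after the first values were seen. There 3 of 8 members were called, all lower, against 14.1% of 9028 genes (8.51% higher and 5.58% lower). Ptch1 was 208 CPM (188 to 229.8) against 174 CPM (165 to 183), a log2 ratio of 0.26 (0.094 to 0.42) that was no longer called. Gli1 was 54.3 CPM (44.2 to 66.0) against 60.5 CPM (55.3 to 66.0), with a log2 ratio of -0.16 (-0.48 to 0.15) whose interval spans 0. Gas1 was 26.9 CPM (19.9 to 35.4) against 39.0 CPM (34.9 to 43.5), a log2 ratio of -0.54 (-0.997 to -0.11) below the size for a call, and Cdon 16.1 against 19.8 CPM with an interval of -0.91 to 0.27 on the log2 scale.

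The members called lower than in dental cells were Gli2, with a log2 ratio of -0.96 (-1.52 to -0.45), Gli3, at -0.85 (-1.14 to -0.56), and Boc, at -1.15 (-2.02 to -0.38). Called doublets made up 12.4% of the initiation knot-like and 3.90% of the dental cells. Without them, in 205 initiation knot-like and 979 Foxa-negative dental cells, 5 members were called lower, the same 3 with Gas1, at 12.9 against 39.6 CPM, and Cdon, at 10.9 against 20.4 CPM. Ptch1, at a log2 ratio of 0.34, and Gli1 were still not called.

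In the 24 Foxa-positive Shh-high cells, 3 of 8 members were called, Ptch1 and Gli1 higher and Cdon lower, in a comparison where 29.2% of 9063 genes were called (11.4% higher and 17.8% lower). The count in so few cells was unsteady and became 5 or 6 under 4 alternatives: 6 at no more than 5% mitochondrial UMIs and in thinned cells, and 5 in Xist-positive cells and with Foxa from 2 UMIs. Ptch1 was 301 CPM (233 to 384) against 95.9 CPM (86.1 to 107), a log2 ratio of 1.65 (1.25 to 2.04). Gli1 was 88.1 CPM (53.1 to 138) against 23.8 CPM (19.0 to 29.4), a log2 ratio of 1.89 (1.09 to 2.62). No Cdon UMI was found in these 24 cells, with an exact upper limit of 17.1 CPM. Against a floor of 3 UMIs over the group Cdon was 2.54-fold lower than the 35.4 CPM (29.5 to 42.1) of the Foxa-positive cells without Shh. Gas1 was at 23.2 and 31.8 CPM, and no difference was detectable at this depth, with a log2 interval of -2.10 to 0.81. Whether the members' ratios differ between Foxa-positive and Foxa-negative cells was not tested. Of the 7 ligand and release genes 3 reached the minimum and all 3 were called higher in these cells, Scube1, Scube3 and Disp1, which encodes a transporter of the ligand. Of the 9 cilium and transduction genes 4 passed the fold in these few cells, Sufu, Gpr161, Evc2 and Ift88, each on 1 to 9 UMIs and with an interval that spans 0, from -0.26 to 1.91 for Sufu, so no difference was detectable for them.

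**Figure D2:**
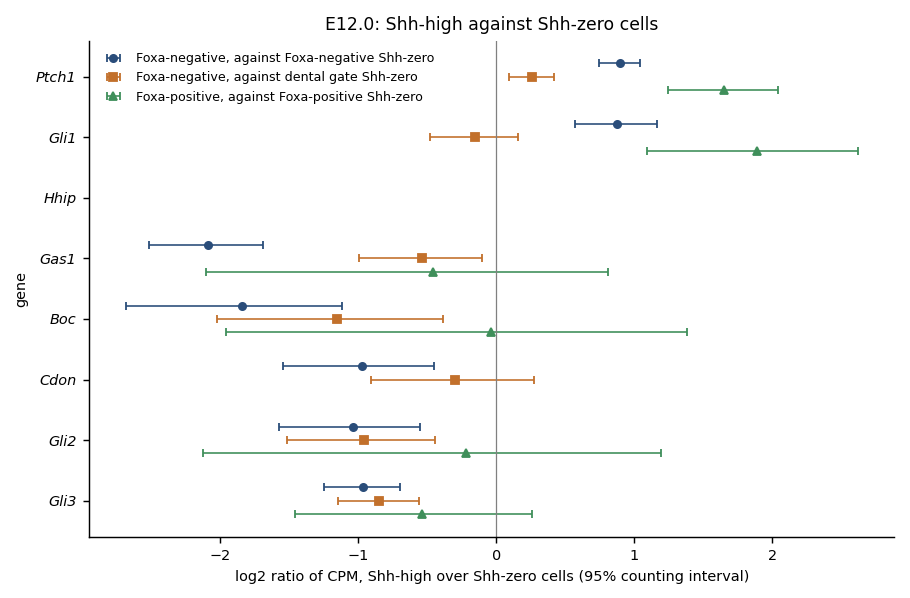
log2 ratio of CPM (horizontal axis) between Shh-high and Shh-zero cells at E12.0 for the 8 members other than Shh (vertical axis), with exact conditional 95% intervals, for Foxa-negative cells against Foxa-negative Shh-zero cells (circles) or dental gate Shh-zero cells (squares) and for Foxa-positive cells against Foxa-positive Shh-zero cells (triangles). Ptch1 and Gli1 move toward 0 when dental cells stand for the comparison, while Gli2, Gli3 and Boc stay below it in Foxa-negative cells. Hhip, at 0 in every Shh-high group, and Cdon in Foxa-positive cells have no point.

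Other genes of ligand release and reception were read from lists. Over all genes 6.85% were higher and 5.03% lower in Shh-high cells. Of 7 ligand and release genes, 3 of which reached the 10 CPM minimum, 2 were higher and none lower. They were Scube1, at 49.1 against 1.49 CPM, and Scube3, at 267 against 93.5 CPM, members of a family of secreted proteins that help release lipid-modified ligand. The other Hedgehog ligand genes were all but absent, with no Ihh or Dhh UMI in Shh-high cells and 0.0538 and 0.0673 CPM of them in cells without Shh. Among receptor genes Lrp2, which encodes a large endocytic receptor, was lower at 5.30 against 14.6 CPM, while Smo, at 139 against 124 CPM, was not called. Of 9 cilium and transduction genes, among them Sufu and Kif7, 8 reached the minimum and none was called. The median log2 difference of these 8 was -0.076 against -0.016 over all genes tested. Of 8 forkhead and related genes that depend on SHH in facial mesenchyme only 1 reached the minimum, Foxc1, called lower at 2.89 against 17.4 CPM. All 6 other reported targets reached it, and 1 was called, the WNT antagonist gene Sfrp1, lower at 5.78 against 21.5 CPM. Initiation knot-like cells were also read against dental cells without Shh. There Lrp2 was 5.37 against 7.71 CPM (log2 interval -1.65 to 0.45) and Foxc1 2.69 against 2.96 CPM (-1.88 to 1.27), both under the minimum. Sfrp1 was still called lower, at 5.91 against 12.9 CPM, and Scube1, Scube3 and Disp1 higher.

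In cells without any Shh UMI the response genes marked out zones. Ptch1 was highest in the dental gate, at 174 CPM (165 to 183) in 1026 cells, and in the tongue gate, at 173 CPM (146 to 204) in 88 cells, and these 2 overlapped. It was 112 CPM (95.7 to 130.2) in periderm, 85.0 CPM (81.7 to 88.5) in anterior and 54.9 CPM (48.7 to 61.7) in posterior cells, with no overlap from one to the next. Gli1 took the same order, 60.5 CPM (55.3 to 66.0) in dental, 43.2 CPM (30.3 to 59.8) in tongue, 29.3 CPM (21.3 to 39.4) in periderm, 21.4 CPM (19.7 to 23.1) in anterior and 12.0 CPM (9.15 to 15.4) in posterior cells, where only the last step was free of overlap. Dental against anterior cells gave a log2 ratio of 1.03 (0.94 to 1.12) for Ptch1 and 1.502 (1.33 to 1.67) for Gli1, and dental against posterior cells 1.66 (1.48 to 1.85) and 2.34 (1.95 to 2.75).

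The co-receptors stood highest in the anterior gate, Cdon with an overlap with tongue cells. Gas1 was 166 CPM (161 to 170.4) there in 4076 cells and between 26.4 and 39.98 CPM in the other 4 gates, whose intervals overlapped from neighbour to neighbour. The log2 ratio of dental against anterior cells was -2.09 (-2.25 to -1.92). Boc was 38.4 CPM (36.1 to 40.7) in anterior and 12.0 to 22.8 CPM in the other gates. Cdon was 43.4 CPM (41.1 to 45.9) in anterior cells and 36.0 CPM (24.3 to 51.4) in tongue cells, and lowest in periderm at 15.3 CPM (9.72 to 23.0).

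Hhip was low throughout and highest in the anterior gate. It was measured at 5.08 CPM (4.29 to 5.97) in that gate and at no more than 0.666 CPM in the other 4 gates and 0.474 CPM between gates, with 1 UMI in 1026 dental cells. A Hhip UMI was found in 3.31% (2.78 to 3.91) of anterior cells (median 6505.5 UMIs) and 0.0975% (0.00247 to 0.542) of dental cells (median 7843.5 UMIs), or 2.11% and 0% after thinning.

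Gli2 and Gli3, the factors behind the response, were not called between the dental, anterior and posterior gates. Gli3 ranged from 93.7 to 125 CPM over 4 of the gates and was 54.6 CPM (43.5 to 67.8) in periderm. Gli2 was 41.7 CPM (39.4 to 44.2) in anterior, 35.6 CPM (31.7 to 39.8) in dental, 29.6 CPM (25.1 to 34.7) in posterior, 22.0 CPM (15.1 to 30.9) in periderm and 13.2 CPM (6.59 to 23.6) in tongue cells, each interval overlapping the next.

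Counted over the members, dental against anterior cells called 5 of 9, Ptch1 and Gli1 higher and Gas1, Boc and Cdon lower, where 10.4% of genes were called (4.88% higher and 5.5% lower). Dental against posterior cells called 2 of 9, Ptch1 and Gli1, both higher, where 7.51% of genes were called (2.75% higher and 4.76% lower). Anterior against posterior cells called 4 of 9, Ptch1, Gli1, Gas1 and Boc, all higher, where 10.6% of genes were called (4.62% higher and 5.97% lower). Shh cannot be called in these counts since the cells were chosen to lack it. The dental cells were deeper than the anterior ones, at a median of 7843.5 against 6505.5 UMIs.

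**Figure D3:**
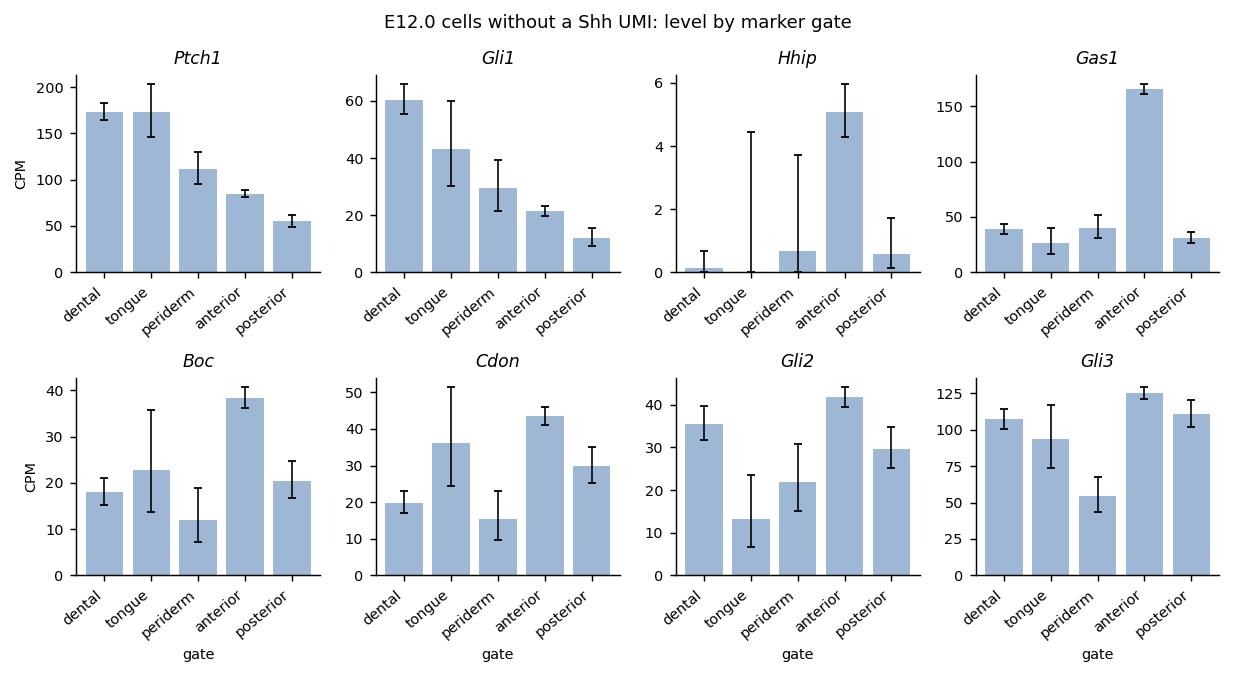
Level in CPM (bars, vertical axis from 0, with exact 95% Poisson intervals) of 8 members in E12.0 cells without a Shh UMI, by marker gate (horizontal axis: dental, tongue, periderm, anterior and posterior, with 1026, 88, 202, 4076 and 630 cells). Ptch1 and Gli1 are highest in dental and tongue cells, at 174 and 173 CPM for Ptch1, and Gas1 and Hhip in anterior cells.

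At E9.5 the level of the ligand transcript was highest in endoderm. The endoderm gate took epithelial cells (Epcam, Cdh1 and Cldn6) with at least 2 UMIs of Foxa1 plus Foxa2, 81 cells in all, and the epithelium gate 2581 such cells with none. Genes not used for the gates were read as a check: the pharyngeal endoderm gene Pax9 was at 63.7 against 6.44 CPM and Pax1 at 47.8 against 15.8 CPM. The notochord genes T and Noto and the thyroid and lung gene Nkx2-1 had no UMI in the endoderm gate.

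Shh was measured at 46.2 CPM (35.1 to 59.7) in endoderm and 4.26 CPM (3.59 to 5.03) in epithelium, a log2 ratio of 3.44 (2.97 to 3.89). The larger epithelium gate held more of the UMIs, 141.0 against 58.0. In the mesenchyme gate (Prrx1, Prrx2, Twist1 and Pdgfra, 5457 cells) it was 0.151 CPM (0.0781 to 0.264), and none of the 69 erythroid cells had a UMI, which allows a share of up to 4.35% by a floor of 3 counts and up to 5.21% by the exact interval. A Shh UMI was found in 29.6% (20.0 to 40.8) of endoderm cells (median 14662 UMIs), 3.29% (2.64 to 4.06) of epithelium cells (median 12467 UMIs) and 0.2199% (0.114 to 0.384) of mesenchyme cells (median 15157 UMIs), or 12.5%, 1.90% and 0.108% after thinning to 6000 UMIs. Of the 62 cells with at least 2 Shh UMIs, 29 lay in the epithelium gate, 22 were ungated and 11 were in the endoderm gate. At least 3 UMIs of Epcam, Cdh1 and Cldn6 were found in 60 of these 62.

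Within the epithelium gate, 186 cells with a Pax1 UMI had 7.87 CPM (4.81 to 12.2) of Shh, against 4.26 CPM (3.59 to 5.03) in the whole gate, of which they are a part.

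Endoderm also held the highest levels of the response genes, Gli1 with an interval that overlapped with the mesoderm core. Endoderm against epithelium called 6 of 9 members, Shh, Ptch1, Gli1 and Hhip higher and Gas1 and Cdon lower, where 6.16% of 8389 genes were called (3.87% higher and 2.29% lower). Ptch1 was 258 CPM (231 to 288) against 76.0 CPM (73.1 to 79.1), a log2 ratio of 1.76 (1.59 to 1.93). Gli1 was 14.3 CPM (8.50 to 22.7) against 4.75 CPM (4.03 to 5.55), a log2 ratio of 1.59 (0.80 to 2.30). Hhip was 23.1 CPM (15.5 to 33.2) against 3.24 CPM (2.65 to 3.91), a log2 ratio of 2.84 (2.19 to 3.44), so that here it went with the other response genes.

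Gas1 ran opposite once more, 34.2 CPM (24.8 to 46.1) in endoderm and 121 CPM (118 to 125) in epithelium, a log2 ratio of -1.83 (-2.29 to -1.39). For Cdon the values were 13.5 CPM (7.89 to 21.7) and 25.6 CPM (23.9 to 27.4), a log2 ratio of -0.92 (-1.71 to -0.23). Gli2, Gli3 and Boc were not called, with log2 ratios of -0.27 (-1.09 to 0.44), -0.17 (-0.45 to 0.087) and -0.11 (-1.44 to 0.96). Of the other pathway lists, only Scube3, of ligand release, was called, at 42.2 against 23.9 CPM.

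Endoderm cells without a Shh UMI had high response values too. Their Ptch1 was 212 CPM (182 to 246) in 57 cells and 312 CPM (237 to 402) in the 11 with at least 2 Shh UMIs, and Gas1 was 41.7 CPM (29.1 to 58.0) and 15.8 CPM (3.27 to 46.3). The intervals overlapped in both pairs. In the epithelium gate the Pax1 cells had 152 CPM (137 to 168) of Ptch1 and 66.1 CPM (56.5 to 76.9) of Gas1, where the whole gate had 76.0 and 121 CPM.

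Endoderm against mesenchyme called 7 of 9 members, 6 higher and Gas1 lower, where 28.9% of 8466 genes were called (20.2% higher and 8.62% lower). Gas1 had 34.2 against 65.7 CPM and Ptch1 258 against 54.8 CPM. Epithelium against mesenchyme called 4 of 9, Gli2, Gli3, Gas1 and Cdon, all higher in epithelium, where 19.8% of 8260 genes were called (14.6% higher and 5.27% lower). Gli3 was 109.6 CPM (106 to 113) in epithelium and 37.1 CPM (35.8 to 38.5) in mesenchyme, a log2 ratio of 1.56 (1.49 to 1.63), and Gli2 15.4 and 4.84 CPM. Ptch1 and Gli1 were not called between these 2 tissues, with log2 ratios of 0.47 (0.40 to 0.54) and 0.51 (0.21 to 0.80). Shh, with a log2 ratio of 4.82 (3.97 to 5.80), stayed under the 10 CPM minimum in both. Lrp2 stood with the epithelial tissues, at 61.3 CPM in endoderm, 65.5 CPM in epithelium and 3.45 CPM in mesenchyme, and Foxd2 and Foxc1 with mesenchyme, Foxc1 at 45.3 CPM there and 23.2 CPM in epithelium.

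**Figure D4:**
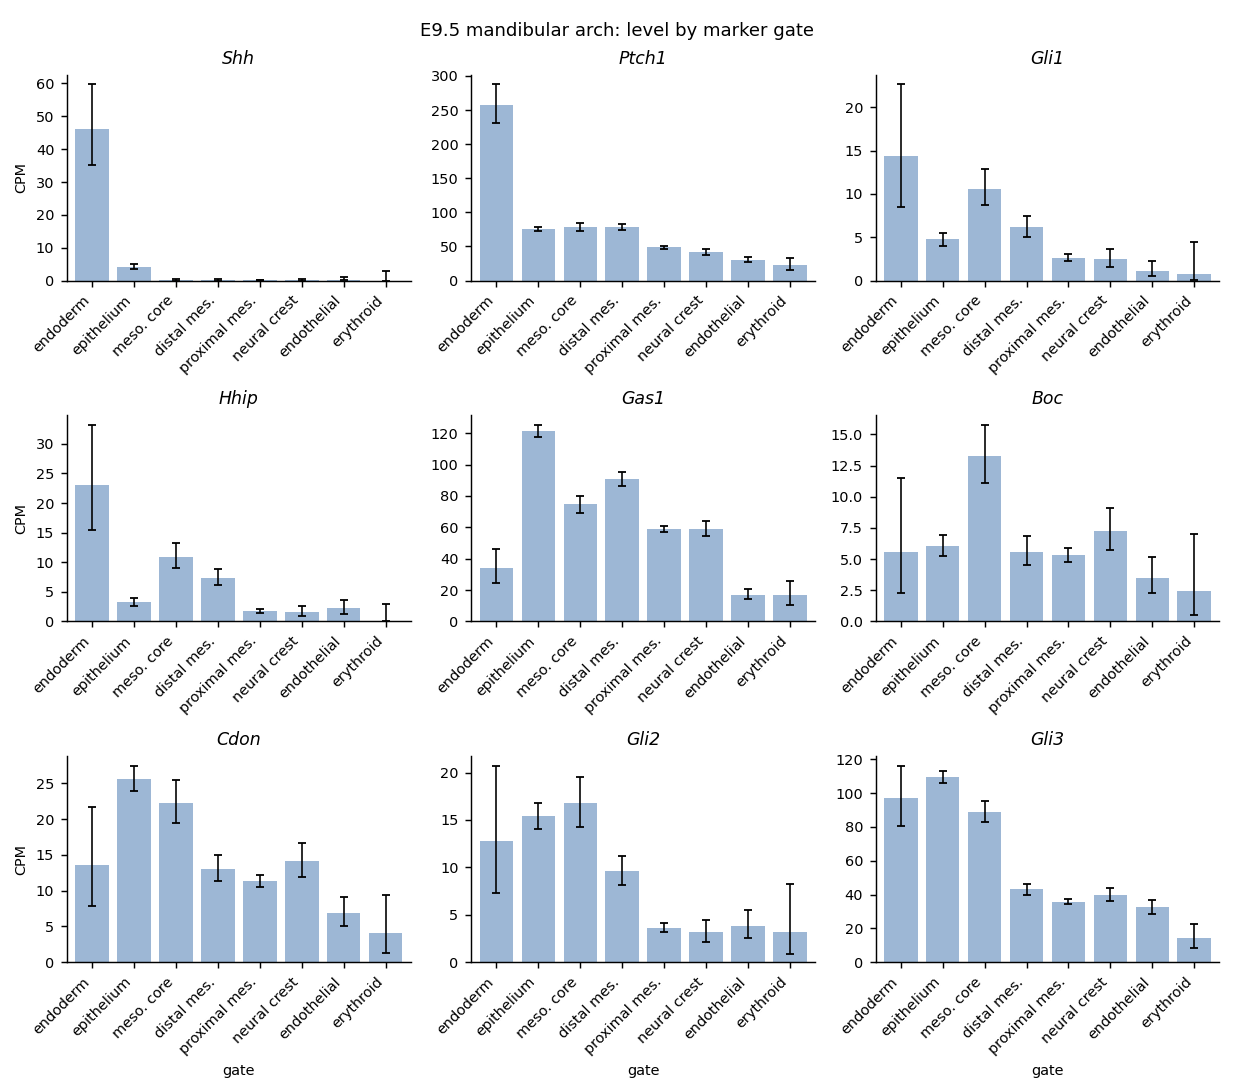
Level in CPM (bars, vertical axis from 0 in each panel, with exact 95% Poisson intervals) of the 9 members in E9.5 cells by marker gate (horizontal axis). Shh, Ptch1, Gli1 and Hhip are highest in the 81 endoderm cells (258 CPM for Ptch1, and 14.3 CPM for Gli1 beside 10.6 CPM in the mesoderm core with overlapping intervals), while Gas1 is highest in epithelium at 121 CPM and Boc in the mesoderm core at 13.3 CPM. Bars of the 69 erythroid cells show the level in a cell type that should lack these genes.

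Mesenchyme had hardly any ligand transcript, and its Ptch1, at 54.8 CPM, lay below the 76.0 CPM of epithelium and the 258 CPM of endoderm. Ptch1 was 78.0 CPM (73.8 to 82.4) in 1010 cells with a UMI of Hand2, a gene of the distal arch, and 48.8 CPM (47.1 to 50.5) in 4447 cells without one, a log2 ratio of 0.68 (0.58 to 0.77). It was the 1 of 9 members called between these gates, where 3.21% of 7632 genes were called (2.69% higher and 0.524% lower). Gli1, Gli2 and Hhip had larger ratios at low levels, 6.15 against 2.60 CPM, 9.62 against 3.59 CPM and 7.37 against 1.68 CPM. Erythroid cells, which should lack these genes, had 23.3 CPM (15.6 to 33.4) of Ptch1, 16.9 CPM (10.4 to 25.8) of Gas1 and 14.4 CPM (8.56 to 22.8) of Gli3, and a Ptch1 UMI in 26.1% (16.3 to 38.1) of cells (median 17386 UMIs) against 41.2% (39.7 to 42.6) of proximal mesenchyme cells (median 14897 UMIs), or 12.7% and 23.8% after thinning. Endothelial cells had 30.8 CPM (26.8 to 35.2) of Ptch1.

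The mesoderm core (Tcf21, Msc, Myf5 and Tbx1, 711 cells), from which arch muscle forms, was above proximal mesenchyme for 7 of 9 members, where 12.5% of 7953 genes were called (9.23% higher and 3.28% lower). Gli2 was 16.7 CPM (14.3 to 19.5) against 3.59 CPM (3.14 to 4.09), a log2 ratio of 2.22 (1.92 to 2.52). Hhip was 10.9 CPM (8.95 to 13.2) against 1.68 CPM (1.38 to 2.04), a log2 ratio of 2.70 (2.30 to 3.099), and Gli1 10.6 CPM (8.67 to 12.9) against 2.60 CPM (2.22 to 3.03), a log2 ratio of 2.03 (1.66 to 2.39). The other called members were Ptch1, Gli3, Boc and Cdon, with log2 ratios of 0.68 (0.57 to 0.80), 1.32 (1.21 to 1.44), 1.32 (1.02 to 1.62) and 0.97 (0.75 to 1.19), while Gas1, at 0.33 (0.22 to 0.45), was not called. Scube1 and Disp1 of ligand release were higher, Scube1 at 51.2 against 6.46 CPM, and of the SHH-dependent list Foxd1 was higher, at 36.3 against 4.27 CPM, while Foxd2 and Foxc1 were lower. Scrublet called 4.22% of mesoderm core and 0.765% of proximal mesenchyme cells doublets, and the part of this in the result was not tested.

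Mesenchyme cells were last split by the response genes themselves. The 1116 cells with at least 2 UMIs of Ptch1 plus Gli1 were set beside the 2944 with none, so Ptch1 and Gli1 are not counted. None of the other 7 members was called, where 14 of 7501 genes (0.187%) were called, all higher and Ptch1 itself among them. The cells with more response UMIs were also deeper, with a median of 17942 against 13325 UMIs, and 31.3% of them (28.6 to 34.1) had a Hand2 UMI against 13.1% (11.9 to 14.3), so the split takes more distal cells.

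Among the members Hhip had the widest ratio, at a level under the 10 CPM minimum. It rose from 1.38 (1.02 to 1.82) CPM without a Ptch1 or Gli1 UMI to 2.44 (1.85 to 3.17) with 1, 3.88 (2.80 to 5.24) with 2 and 8.41 (6.65 to 10.5) with 3 or more, and the ends of this series did not overlap. The log2 ratio of the 2 groups was 2.12 (1.63 to 2.62). Within distal cells alone Hhip was 12.3 against 3.76 CPM, which was called, and within proximal cells 3.15 against 0.946 CPM.

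Of the forkhead genes known to depend on SHH in facial mesenchyme, Foxf1 went from 0.689 (0.446 to 1.02) CPM without a response UMI to 5.21 (3.86 to 6.89) with 3 or more, Foxf2 from 0.331 (0.171 to 0.578) to 3.51 (2.42 to 4.93) and Foxc2 from 1.96 (1.53 to 2.47) to 8.19 (6.47 to 10.2). None of the 8 genes of this list was called, and 6 of them stayed under the minimum. Foxd2 and Foxc1 reached it, at 40.9 against 38.2 CPM and 50.7 against 42.1 CPM with at least 2 response UMIs against none. Their log2 ratios were 0.098 (-0.028 to 0.22) and 0.27 (0.15 to 0.38). In distal against proximal cells Foxf1 was 4.45 against 0.540 CPM, Foxf2 1.34 against 0.826 CPM and Foxc2 2.74 against 3.46 CPM. Foxd2 and Foxc1 were called lower in distal cells. The co-receptors were not called between mesenchyme cells with at least 2 response UMIs and those with none. Gas1 was 62.4 CPM (59.0 to 65.9) against 66.4 CPM (63.8 to 69.1), a log2 ratio of -0.091 (-0.19 to 0.0079), and in the 494 cells with 3 or more response UMIs it was 57.1 (52.4 to 62.2) CPM, just clear of the 66.4 (63.8 to 69.1) CPM without any. Boc had a log2 ratio of -0.012 (-0.37 to 0.34) and Cdon of 0.11 (-0.13 to 0.34).

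**Figure D5:**
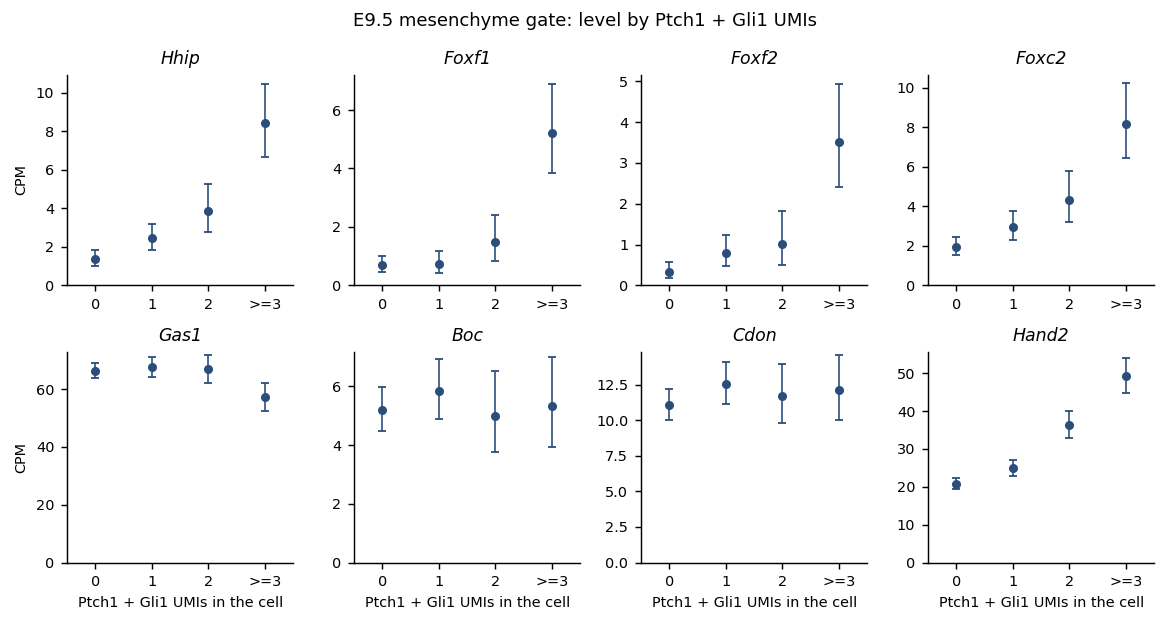
Level in CPM (vertical axis from 0, with exact 95% Poisson intervals) of members and other genes in 5457 E9.5 mesenchyme cells by the number of Ptch1 plus Gli1 UMIs in the cell (horizontal axis: 0, 1, 2, at least 3). Hhip climbs from 1.38 to 8.41 CPM and Hand2 from 20.9 to 49.3 CPM, while the intervals of Boc and of Cdon overlap in every class and Gas1 lies between 57.1 and 67.6 CPM.

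Patterns over gates were compared for the ligand and its main response genes. Over the 13 gates of both libraries, 5 gates of the E12.0 library and 8 gates of the E9.5 library, the genes whose log2 level ran most like Shh among 5344 abundant genes were Dpysl5 (Pearson's r of 0.93), Tnfrsf12a (0.93) and Atg12 (0.91). For Ptch1 they were Cnksr2 (0.88), Atg12 (0.88) and Gpalpp1 (0.86), and for Gli1 Eef2 (0.95), Gtf2ird1 (0.94) and Osbpl3 (0.94). The points share 2 libraries that differ in stage, depth and gene list, so these values describe the gates and nothing more.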

How the data were processed

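The authors deposited a matrix of UMI counts, genes by barcodes, for 1 library per stage, made from 10x 3′ V3 reads aligned to GRCm38 and counted with Cell Ranger. The submitters' processing notes name version 2.0.0, and the file headers 3.1.0 at E12.0 and 6.1.2 at E9.5. Barcodes were already selected as cells, and the gene lists differ, with 27514 Ensembl IDs in both. The pooled embryos of a library are not replicates, and intervals cover the counting of UMIs only.

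Kept cells held 503 to 21712 UMIs at E12.0 (77936364 in all) and 500 to 40102 at E9.5 (166191431 in all). UMIs were summed over groups of cells, without replicate and so without a test, with Python 3.11.15, numpy 2.4.6, scipy 1.17.1 and pandas 2.3.3. Doublets were called with Scrublet through scanpy 1.11.5, 661 cells at E12.0 and 331 at E9.5, and kept in. The floor for a count of 0 was 3 UMIs over the group. Shares were also computed after thinning each cell to 4000 UMIs at E12.0 or 6000 at E9.5, without shallower cells.

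At E12.0 a cell was assigned in this order: periderm from 4 marker UMIs, tongue from 2, posterior from 2, dental from 4 with at most 4 anterior ones, and anterior from 8 with at most 3 dental ones. At E9.5 the order was erythroid (3 marker UMIs, Alas2 and Klf1 among them), endothelial (3 of Pecam1, Cdh5 and Kdr), neural crest (2 of Sox10), endoderm and epithelium (3 epithelial and at most 2 mesenchymal UMIs), mesoderm core (3) and mesenchyme (3), the last 2, endothelial and neural crest cells with at most 1 epithelial UMI. Epithelial cells with a single Foxa UMI were left ungated.

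The members and lists were chosen with earlier results of these data known. Members were counted in every comparison but not each was named in all of them. Other pathway genes that were called were named only in part, so a gene left unnamed may still have been called. Likeness of pattern was Pearson's r of log2(CPM + 5) over gates of at least 50 cells, among genes with at least 50 CPM in 1 of them. Alternatives changed the fold, the pseudocount, the minimum, the filters on cells, the Shh and Foxa thresholds and the comparison cells, and were run without called doublets, on thinned cells and on Xist-positive cells. Positions come from GENCODE M21. Some marker and pathway genes are not reported here. The scripts were checked on simulated data.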

Additional observations from a re-analysis of the deposited data

Results flagged for a closer look

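Ccnd1, which encodes a cyclin of the G1 phase and is a reported Hedgehog target, had ratios of opposite sign in the 2 kinds of Shh-high cell. Its log2 ratio to cells without Shh was 0.65 (0.52 to 0.78) in Foxa-negative cells. In Foxa-positive cells it was -0.81 (-1.73 to -0.021), on 13 UMIs. Against dental cells without Shh the Foxa-negative rise was absent, at 268 against 286 CPM, a log2 ratio of -0.095 (-0.24 to 0.045) that was not called. The difference between Foxa-negative and Foxa-positive cells was not tested, since each stands for cells of 1 library, and the Foxa-positive group holds 24 cells.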

How the results depend on the processing

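No paired analysis was possible because each stage has 1 library, and for the same reason no replicate could be left out. Of 95 alternative counts of called members, 84 stayed within 1.5 times the reported count, and no alternative called a member in the opposite direction to the reported call. The 7 members called in Shh-high cells, with or without Foxa-positive cells, became 2 at a fold of 2 in each case and 3 against dental cells without Shh, or 5 when called doublets were left out as well, a pairing added after the data were seen. The 3 called in Foxa-positive cells became 6 at no more than 5% mitochondrial UMIs, 6 in thinned cells, 5 in Xist-positive cells and 5 with Foxa from 2 UMIs, so that count is loose in a group of 24 cells. The 4 called in epithelium against mesenchyme became 2 at a fold of 2. The 0 called in mesenchyme became 1, Hhip, with no minimum CPM and in distal cells alone. Against dental cells Gli1 turned from higher to lower, at a log2 ratio of -0.066 for all Shh-high cells and -0.16 for Foxa-negative ones, or -0.024 for the latter without called doublets. Of 561 alternative values of single members, 470 stayed, 88 moved and these 3 turned. Depth limits what the groups of 24 Foxa-positive and 11 endoderm Shh-high cells can show.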
